A study of Mus musculus with 27 samples.

Results

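The nuclear genes that encode subunits of the oxidative phosphorylation (OXPHOS) system were followed through knockdown (KD) of 4 erythroid regulators and through induced differentiation of mouse erythroleukaemia (MEL) cells. A gene was taken by its symbol, which had to begin with Nduf followed by a, b, c, s or v and a number, with Uqcr, with Cox and a number from 4 to 8, or with Atp5, or had to be *Sdha*, *Sdhb*, *Sdhc*, *Sdhd* or *Cyc1*. *Ndufa4l2* was left out. The rule gave 79 genes of the 14558 listed in all 5 RNA-Seq tables, of which 35 were assigned by their symbol to complex I, 4 to complex II, 9 to complex III, 14 to complex IV and 17 to complex V. Symbols do not settle function, since *Ndufa4*, counted here with complex I, is now known as a complex IV subunit, and *Atp5sl*, counted with complex V, is *Dmac2* in RefSeq and known as an assembly protein of complex I. *Atp5s*, also counted with complex V by its symbol, is *Dmac2l* in RefSeq. The symbols *Cox4i2* and *Cox7b2* match the rule but were listed in 3 of the 5 tables and were left out.

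MEL cells are a virus-transformed proerythroblast line that can be driven to late erythroid differentiation in culture. The study asked how the co-repressor ETO2 (encoded by *Cbfa2t3*) and its partners, among them IRF2BP2, GFI1B and LSD1 (encoded by *Kdm1a*), act on erythroid genes in these cells. It concluded that LSD1 generally plays an activating part in erythroid differentiation. All groups are the same line in culture and carry no other stated genetic change. The first table holds 2 Eto2 WT libraries, 2 Eto2 KD-sh2 libraries and 2 Eto2 KD-sh3 libraries, the second 2 Irf2bp2 WT and 2 Irf2bp2 KD-sh1 libraries, the third 2 Gfi1b WT and 2 Gfi1b KD libraries, the fourth 1 Lsd1 WT and 2 Lsd1 KD libraries, and the fifth 2 non-induced and 2 induced MEL libraries. The labels' WT stands for cells given a non-targeting control, not for untreated cells. *Cbfa2t3*, *Irf2bp2* and *Kdm1a* were depleted with lentiviral short hairpin RNAs (shRNAs), and *Gfi1b* was depleted by transfection of a pair of small interfering RNAs. *Irf2bp2* was thus depleted in these libraries with a single hairpin, while *Cbfa2t3* was depleted with separate hairpins, sh2 and sh3. In bulk RNA, fewer cells of a kind and less RNA per cell cannot be told apart.

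OXPHOS is the chain of inner-membrane complexes that turns the electrons of NADH and succinate into ATP. Complex I (NADH dehydrogenase) and complex II (succinate dehydrogenase, also an enzyme of the citric acid cycle) pass electrons to ubiquinone, complex III passes them on to cytochrome c, complex IV (cytochrome c oxidase) passes them to oxygen, and complex V (ATP synthase) uses the proton gradient that complexes I, III and IV build. Mitochondrial DNA encodes a small set of catalytic subunits, and all others, the genes described here, are nuclear. Several complex IV subunits have a general form and a form that is restricted to a tissue. Red cells discard their mitochondria at the end of maturation, after the mitochondria have served haem synthesis.

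The promoters of the genes on which the results turn are shown first, as RefSeq gives them on GRCm38.p6. Each line is the 150 bases before the transcription start, written 5′ to 3′ along the gene. Capitals mark letters that match the core site of NRF1 (CGCATGCG), of ETS factors (CCGGAAG), of YY1 (AAGATGGCG) or of the oestrogen-related receptors (ERR, TCAAGGTCA) on either strand, factors known as regulators of respiratory genes. *Cox6b1* and *Cox6b2* encode the general and the testis form of the same complex IV subunit, and are shown because they behaved differently. *Cox7a1*, the muscle form of subunit VIIa, and *Atp5s*, a coupling factor B-like protein, were among the members that changed most. *Uqcrh*, the hinge subunit of complex III, and *Atp5e*, the epsilon subunit of ATP synthase, rose after *Irf2bp2* KD. *Atp5j*, coupling factor 6, has 2 RefSeq starts, and is shown at the one whose stretch holds 3 of the 4 motifs, while the stretch of the other holds none. *Atp5g1*, *Atp5g2* and *Atp5g3* encode the same mature ring subunit c from separate promoters.
Cox6b1, chr7:30626115-30626264 (minus strand): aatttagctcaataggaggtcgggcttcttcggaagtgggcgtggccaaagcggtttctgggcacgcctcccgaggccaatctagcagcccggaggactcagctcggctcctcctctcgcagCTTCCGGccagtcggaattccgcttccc
Cox6b2, chr7:4753095-4753244 (minus strand): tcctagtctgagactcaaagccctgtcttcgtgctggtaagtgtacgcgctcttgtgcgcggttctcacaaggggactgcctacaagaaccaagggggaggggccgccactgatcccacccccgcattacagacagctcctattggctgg
Cox7a1, chr7:30184021-30184170 (plus strand): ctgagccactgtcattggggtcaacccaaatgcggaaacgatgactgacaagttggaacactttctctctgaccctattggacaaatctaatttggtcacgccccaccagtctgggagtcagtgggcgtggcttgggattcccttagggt
Atp5s, chr12:69724795-69724944 (plus strand): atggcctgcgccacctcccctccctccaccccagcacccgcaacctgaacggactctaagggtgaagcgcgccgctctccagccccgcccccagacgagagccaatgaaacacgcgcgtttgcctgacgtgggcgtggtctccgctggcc
Uqcrh, chr4:116075071-116075220 (minus strand): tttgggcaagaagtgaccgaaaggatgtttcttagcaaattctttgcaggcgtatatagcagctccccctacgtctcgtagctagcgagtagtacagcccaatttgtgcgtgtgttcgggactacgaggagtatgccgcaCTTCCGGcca
Atp5e, chr2:174464102-174464251 (minus strand): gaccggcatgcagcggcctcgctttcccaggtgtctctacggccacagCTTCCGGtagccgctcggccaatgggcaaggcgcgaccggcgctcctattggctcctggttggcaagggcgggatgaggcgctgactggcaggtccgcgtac
Atp5j, chr16:84834977-84835126 (minus strand): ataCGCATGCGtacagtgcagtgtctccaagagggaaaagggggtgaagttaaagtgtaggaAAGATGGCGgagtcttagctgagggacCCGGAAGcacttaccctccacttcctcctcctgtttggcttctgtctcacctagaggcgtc
Atp5g1, chr11:96075632-96075781 (minus strand): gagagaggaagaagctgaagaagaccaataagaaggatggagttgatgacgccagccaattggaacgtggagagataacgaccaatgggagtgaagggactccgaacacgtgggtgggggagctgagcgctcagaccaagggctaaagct
Atp5g2, chr15:102671048-102671197 (minus strand): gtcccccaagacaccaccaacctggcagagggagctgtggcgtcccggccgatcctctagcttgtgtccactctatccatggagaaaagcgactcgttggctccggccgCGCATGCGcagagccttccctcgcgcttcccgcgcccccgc
Atp5g3, chr2:73911327-73911476 (minus strand): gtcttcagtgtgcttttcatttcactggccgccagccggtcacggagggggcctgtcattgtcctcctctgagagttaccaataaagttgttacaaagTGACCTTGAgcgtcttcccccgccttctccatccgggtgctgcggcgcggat

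Among these sequences the stretches of *Cox6b1*, *Uqcrh* and *Atp5e* hold an ETS core, that of *Atp5g2* an NRF1 core and that of *Atp5g3* an ERR site. Those of *Cox6b2*, *Cox7a1*, *Atp5s* and *Atp5g1* hold none of the 4 sets of letters. The stretch of *Atp5j* faces *Gabpa*, the gene of an ETS-family regulator of respiratory genes, on the other strand. A RefSeq window from 250 bases before to 50 after the start was found for 66 of the 79 members. In it, the NRF1 core occurred in 9 members (13.6%, against 2.77% of 17492 protein-coding genes), the ETS core in 16 (24.2% against 12.9%), the YY1 site in 8 (12.1% against 2.14%) and the ERR site in 2 (3.03% against 0.377%). At least 1 of the 4 was found in 28 members, or 42.4%, against 17% of all protein-coding genes. By complex, at least 1 was held by 11 of 31 windows in complex I, 2 of 3 in complex II, 3 of 5 in complex III, 3 of 11 in complex IV and 9 of 16 in complex V. These are matches of letters in a fixed window, described without a test.

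Most OXPHOS genes were among the abundant messages of MEL cells. Levels between genes are compared on the authors' RPKM (reads scaled by transcript length and by the total of the library), averaged over the 6 libraries of the *Cbfa2t3* table. The median member stood at 161.9 RPKM, while the median of the 12537 genes tested in that table was 10.8 RPKM. A level above 100 RPKM was reached by 63 of the 79 members (79.7%), compared with 7.42% of the tested genes. The highest member was *Atp5b*, the catalytic beta subunit of ATP synthase, at 954 ± 109 RPKM (SD, n = 6), followed by *Cox4i1*, the general form of complex IV subunit 4, at 586 ± 20.6 RPKM. The spread of *Atp5b* does not overlap that of *Cox4i1*, whose highest library was at 617 RPKM while the lowest *Atp5b* library was at 816 RPKM. *Atp5g3* at 553 ± 12.7 RPKM and *Atp5a1*, the alpha subunit, at 531 ± 17.0 RPKM came next, and their spreads lie close to or within that of *Cox4i1*. In complexes I, II and III the highest members were *Ndufb8* (332 RPKM), *Sdhb*, the iron-sulfur subunit (151 RPKM), and *Uqcrq* (330.5 RPKM). Medians per complex ran from 122 RPKM in complex I and 126 in complex II to 188 in complex III, 244 in complex V and 258 in complex IV. The low end was made of tissue-restricted or accessory genes, with *Cox6a2*, the heart and muscle form of subunit VIa, at 0.821 ± 0.298 RPKM, *Atp5s* at 3.69 ± 0.594 RPKM and *Cox7a1* at 3.80 ± 0.90 RPKM. No member stayed under 1 RPKM in every library.

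**Figure D1:**
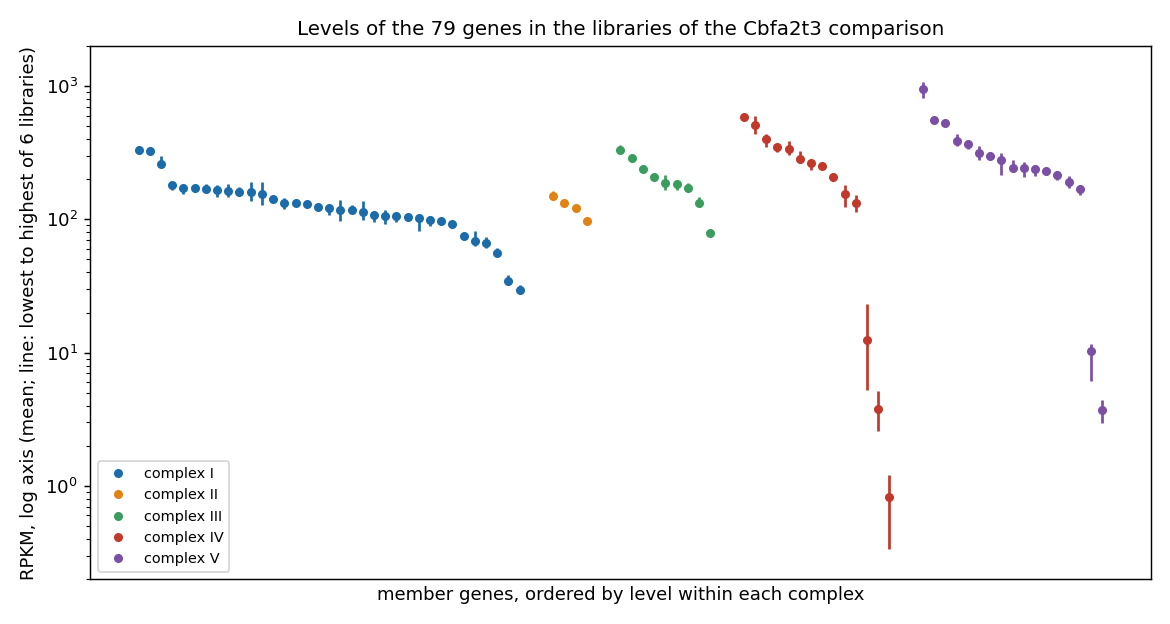
Levels of the 79 genes in the 6 libraries of the *Cbfa2t3* table, as the authors' RPKM on a log axis, ordered within each complex, with a point for the mean and a line from the lowest to the highest library. Most genes lie above 100 RPKM, and the lowest of complexes IV and V, *Cox6a2* and *Atp5s*, lie at 0.821 and 3.69 RPKM.

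The libraries of the shRNA tables held 44519414 to 57684583 counted reads, and those for *Gfi1b* and for MEL induction held 9929311 to 19623105, so that low members were less precisely counted in the latter. CPM values (counts scaled to a common library total by the TMM method) are used below within a gene. The targeted gene was checked in every table. *Cbfa2t3* stood at 400.3 and 427 CPM in the controls, at 202 and 244 with sh2 and at 123 and 145 with sh3, and *Kdm1a* went from 152 CPM to 16.9 and 16.3. *Irf2bp2* mRNA went from 116 and 119.7 CPM to 92.2 and 94.9, a small difference (log2 fold change −0.33, adjusted p = 0.00266 by edgeR's quasi-likelihood test). *Gfi1b* stood at 122 and 145 CPM in the controls and at 76.5 CPM in the library labelled Gfi1b KD replicate 2, but at 216 CPM in the library labelled Gfi1b KD replicate 1, above both controls and against its label. Among erythroid markers *Hbb-b2* was counted in every library (609 to 241829 reads), while *Hba-a1* and *Hbb-b1*, which have near-identical copies that the counting could split, were listed at 0 to 66 reads. Of the other blood lineages, the lymphoid *Cd3e* and the myeloid *Mpo* were at 0 to 7 reads wherever listed. The lymphoid *Cd79a* was at 0 to 34 reads, with 8 in the Lsd1 control and 34 and 25 with *Kdm1a* KD. The megakaryocytic *Pf4* and *Itga2b* were present. The erythroid marker sums below add *Gata1*, *Klf1*, *Tal1*, *Epor*, *Tfrc*, *Alas2*, *Slc4a1*, *Epb4.2*, *Hbb-b1*, *Hbb-b2* and *Hba-a1* where listed. Sums of the other lineage markers are nearly all *Pf4* and *Itga2b*.

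A member is called higher or lower below where edgeR's adjusted p over all tested genes was at most 0.05 and the log2 fold change was at least 0.5 in size. After *Cbfa2t3* KD most OXPHOS genes stayed close to the controls, and 1 gene, *Cox6b2*, passed the test. The test called 1 of 79 members higher, where 2.99% of all tested genes were called higher, and 0 lower, where 2.75% were. At an unadjusted p under 0.05 there were 7 members higher and 0 lower, where 13.3% and 13% of all tested genes were, and DESeq2 also called 1 higher and 0 lower. The median log2 fold change of the members was 0.03, against 0.00 for all tested genes, and the middle of the distribution was narrow, from −0.03 at the lower quartile to 0.08 at the upper.

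*Cox6b2* was counted at 2.55 and 3.12 CPM in the Eto2 WT libraries, at 7.97 and 5.20 CPM with sh2 and at 12.8 and 9.56 CPM with sh3. All 4 KD libraries lie above both controls. The mean went from 2.84 ± 0.402 CPM (SD, n = 2) to 8.88 ± 3.16 CPM (n = 4), a 3.12-fold difference (log2 fold change 1.64, SE 0.32, edgeR adjusted p = 0.0129). The call rested on both controls, since without the first control the adjusted p was 0.160 and without the second 0.101, with log2 fold changes of 1.5 and 1.80. *Cox6a2*, a gene of few reads, was at 0.196 and 0.388 CPM in the controls and at 0.485 to 0.712 CPM in the KD libraries, all above both controls, and did not pass (log2 fold change 0.97, SE 0.32, adjusted p = 0.0943). The general partner of *Cox6b2*, *Cox6b1*, was at 159.6 and 179 CPM in the controls and at 179 to 183 CPM in the KD libraries. Summed over all 79 members, the KD libraries (13710 ± 232 CPM, n = 4) overlapped the controls (13790 ± 37.2 CPM, n = 2), and by complex the sums overlapped except in complex V, where all KD libraries were lower, with a difference of −3.14% on average. The summed level of the erythroid markers was 2566 to 2587 CPM in the controls and 3542 to 4740 CPM in the KD libraries, and that of the other lineage markers went from 402 to 414 CPM to 476 to 590 CPM. The part of either in the *Cox6b2* result was not tested.

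After *Irf2bp2* KD many OXPHOS genes rose by a small amount. At the adjusted p alone, 40 of 79 members (50.6%) were higher and 5 (6.33%) lower, where 23.6% of all 12329 tested genes were higher and 23.6% lower. With the fold limit added, 4 members remained higher and 2 lower, against 10.1% and 12.5% of all tested genes, so that most rises were under the fold limit. The median log2 fold change of the members was 0.23, a 1.17-fold difference, against −0.01 for all tested genes. In 56 members both KD libraries lay above both controls and in 9 below, where 36.7% and 37.4% of all tested genes did so. The count at the adjusted p alone depended on single libraries and fell to 22 without Irf2bp2 KD-sh1 replicate 2 and to 23 without Irf2bp2 WT replicate 1, where 17.3% and 19.1% of all genes were higher.

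The members that passed the adjusted p upwards were spread over all 5 complexes, and differences between complexes were not tested. The median log2 fold change was 0.18 in complex I, 0.16 in complex II, 0.30 in complex III, 0.29 in complex IV and 0.28 in complex V. At the adjusted p alone, 14 of 35 genes were higher in complex I, 1 of 4 in complex II, 6 of 9 in complex III, 8 of 14 in complex IV and 11 of 17 in complex V, so that the share of complex II (25%) was near the 23.6% of all tested genes. Of the 7 core subunits of complex I, which carry the flavin and the iron-sulfur clusters, 2 were higher (28.6%, also near that share), *Ndufv1* and *Ndufs8*, and of the 28 accessory subunits 12 were. Summed CPM rose by 13.2% over all members and by 26.8% in complex IV, where the KD libraries (2695 ± 108 CPM) lay above the controls (2125 ± 78.1 CPM, n = 2 each). The sums of complexes I, II, III and V differed by 10.9%, 5.95%, 12.4% and 10.9%, with no overlap between KD and control libraries in any of them.

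The members past both limits upwards were *Cox8a*, *Atp5e*, *Uqcrh* and *Ndufb7*. *Cox8a*, a subunit of complex IV, was at 193 and 202 CPM in the controls and, with KD, at 283 and 333 CPM (log2 fold change 0.64, SE 0.09, edgeR adjusted p = 2.80e-05). *Atp5e* went from 93.1 and 98.5 CPM to 139.8 and 157 CPM (0.63, adjusted p = 1.47e-05). *Uqcrh* went from 95 and 94.8 CPM to 137 and 151 CPM (0.60, adjusted p = 1.72e-05). In each of these genes both KD libraries were well above both controls. *Ndufb7*, an accessory subunit of complex I, was at 75 and 75.6 CPM and rose to 109 and 104 CPM, just over the fold limit (0.50, adjusted p = 7.66e-05). *Uqcr11* (0.48) and *Uqcrq* (0.48), both small subunits of complex III, stood just under that limit. *Cox4i1* was at 321 and 394 CPM in the controls and 454 and 452 CPM in the KD libraries (0.34, adjusted p = 0.00933), past the adjusted p only.

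*Uqcrc2* went against the others. This core subunit of complex III was at 300.3 and 308 CPM in the Irf2bp2 WT libraries and, with KD, at 178 and 179 CPM. The groups are far apart beside their spread, with a log2 fold change of −0.77 (SE 0.08, adjusted p = 1.07e-06). No other table moved it past the test. Its exons overlap those of *Pdzd9* on the other strand, and the counting is not stated to use strand, so reads of the pair cannot be told apart. *Atp5s* was also lower, at 8.16 and 7.89 CPM against 5.03 and 5.99 CPM (−0.54, SE 0.14, adjusted p = 0.00500). The other members lower at the adjusted p alone were *Atp5f1*, subunit b of ATP synthase (−0.31), and the accessory complex I subunits *Ndufa10* (−0.28) and *Ndufa12* (−0.26). Exons of *Atp5f1* overlap those of *Wdr77* on the other strand. The summed erythroid markers were at 2058 to 2727 CPM in the controls and at 7671 to 8361 CPM in the KD libraries, and the other lineage markers at 368 to 423 CPM and 793 to 834 CPM. Their part in the changes of the members was not tested.

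**Figure D2:**
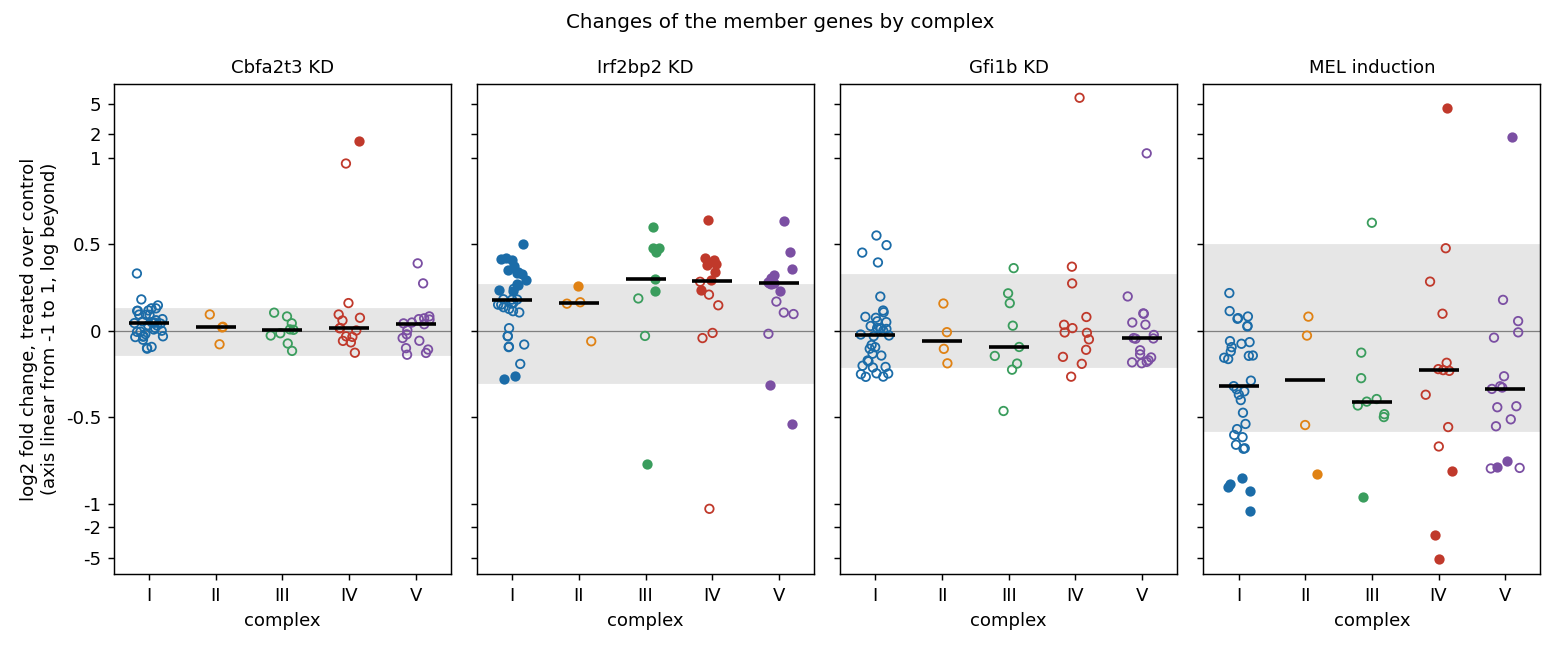
Log2 fold change of each member in the 4 replicated comparisons by complex, filled where the adjusted p alone was passed, with a bar at the median of the complex and a grey band from the lower to the upper quartile of all tested genes (axis linear from −1 to 1, log beyond). The points of *Irf2bp2* KD sit mostly above 0 with 40 members passing the adjusted p upwards, and those of MEL induction mostly below 0.

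After induction of differentiation most OXPHOS estimates lay below 0. In induced MEL cells 12 of 79 members were lower and 2 higher, while 14.8% of all 11713 tested genes were lower and 12.4% higher, so that the share of members called lower (15.2%) was near that of all genes. The estimate was below 0 for 63 of the 79 members, and in 45 members (57%) both induced libraries lay below both non-induced libraries, where 34.5% of all tested genes did so, while 8 lay above, where 32.8% did. The median log2 fold change of the members was −0.34, a 0.793-fold level, against −0.02 for all tested genes. Leaving out a library reduced the lower calls to 1 (without MEL non-induced replicate 2 or MEL induced replicate 2) or 7 (without MEL non-induced replicate 1), where 6.52%, 6.99% and 7.25% of all genes were lower in that order, while the 2 higher calls were made in each such fit.

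Summed message was lower after induction in complexes I, II, III and V. The members together took 11070 ± 437 CPM in non-induced and 8784 ± 114 CPM in induced cells (n = 2 each), a difference of −20.6%. Complex V differed most, by −28.6%, followed by complex II at −23.5%, complex I at −21.1% and complex III at −18.5%, with no overlap between the groups. Such sums weigh abundant genes most. Complex V took 4475 ± 132 CPM in non-induced and 3193 ± 17.8 CPM in induced cells. In it *Atp5b* took 1395 and 1427 CPM before and 874 and 802 CPM after, and *Atp5a1* 1040 and 1072 CPM before and 702 and 739 CPM after. The order of the complexes is thus one of summed message, not of the typical gene. Complex IV differed by −2.35% and its libraries overlapped. That sum includes large rises, of *Cox7a2l* from 379 and 395 CPM to 506 and 573 CPM and of *Cox6b2* from 1.69 and 7.32 CPM to 94.5 and 89.0 CPM. It therefore does not stand for each gene of the complex. Of the 14 members of complex IV 3 were called lower (21.4%) and 1 higher, where 14.8% and 12.4% of all tested genes were. In 7 both induced libraries lay below both controls, where 34.5% of all tested genes did so.

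**Figure D3:**
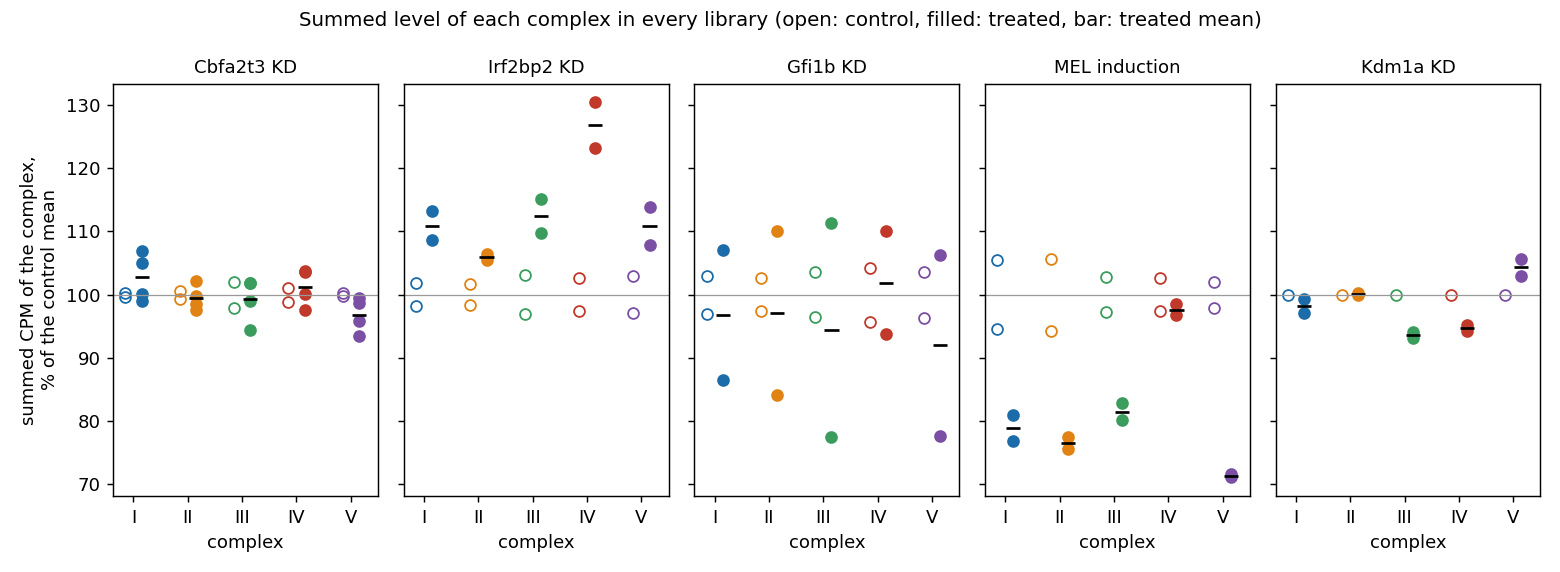
Summed CPM of the members of each complex in every library, as a percentage of the control mean of its table (open points: control, filled points: treated, bar: treated mean). Induced MEL libraries lie below their controls in complexes I, II, III and V, and *Irf2bp2* KD libraries lie above theirs in all 5 complexes.

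Of the members called lower, 5 were in complex I, 1 each in complexes II and III, 3 in complex IV and 2 in complex V. In complex I the share was 14.3% both for core and for accessory subunits, near the 14.8% of all tested genes called lower. *Atp5b* was at 1395 and 1427 CPM in the non-induced libraries and at 874 and 802 CPM in the induced ones (log2 fold change −0.75, SE 0.23, adjusted p = 0.0273). *Sdhb* went from 127 and 127 CPM to 80.0 and 62.8 CPM (−0.83, adjusted p = 0.0217). *Ndufs8*, a core iron-sulfur subunit of complex I, went from 63.2 and 46.2 CPM to 26.3 and 19.7 CPM (−1.25, SE 0.29, adjusted p = 0.00631). It was the complex I gene with the largest change, and its induced libraries lie well under both non-induced ones. *Uqcr10*, a small complex III subunit, went from 92.4 and 96.3 CPM to 56.0 and 41.0 CPM (−0.96, adjusted p = 0.0131). Other falls were in the accessory complex I subunits *Ndufb3* (−0.93), *Ndufa9* (−0.90), *Ndufb6* (−0.88) and *Ndufa12* (−0.85), in *Cox7b* of complex IV (−0.81) and in *Atp5j* of complex V (−0.79), with adjusted p from 0.0167 to 0.0468. *Atp5j* and *Ndufb6* overlap exons of a gene on the other strand (*Gabpa* and *2010003O02Rik*).

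The 2 members that rose after induction were both low before it. *Cox6b2* was at 1.69 and 7.32 CPM in the non-induced libraries and at 94.5 and 89.0 CPM in the induced ones, or 4.51 ± 3.98 against 91.7 ± 3.87 CPM (n = 2 each). Even the higher control is far below both induced libraries. The change was 21.3-fold (log2 fold change 4.41, SE 0.49, edgeR adjusted p = 5.30e-05). Its size depended on the control used, with a log2 fold change of 3.63 without MEL non-induced replicate 1 and 5.75 without MEL non-induced replicate 2, past the test in both. *Atp5s* went from 6.18 and 10.1 CPM to 25.2 and 33.2 CPM, a 3.61-fold rise (1.85, SE 0.35, adjusted p = 0.00218). Of the members that did not pass, *Uqcrh* had the next highest value, with 95.5 and 118 CPM against 147 and 183 CPM (0.63, adjusted p = 0.0734). The erythroid marker sum went from 2020 to 2051 CPM to 6578 to 7674 CPM, and the other lineage markers from 382 to 520.5 CPM to 1158 to 1288 CPM. The erythroid rise lay mostly in *Hbb-b2* (130 and 171 CPM to 3440 and 3004 CPM) and *Alas2* (23.1 and 29.2 CPM to 1228 and 1094 CPM). *Tfrc*, also in that list, went from 948 and 1074 CPM to 970 and 394 CPM. The other rise lay mostly in *Itga2b* (217 and 157 CPM to 968 and 604 CPM) and *Pf4* (297 and 217 CPM to 314.5 and 549.5 CPM). *Ppbp* fell from 3.29 and 6.64 CPM to 0.0692 and 0.213 CPM. The part of either sum in the changes of the members was not tested.

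Forms of the same subunit parted after induction. *Cox6b2* made up 1.26% and 4.82% of the summed RPKM of *Cox6b1* and *Cox6b2* in non-induced cells and 45.1% and 49.6% in induced cells. The general form *Cox6b1* itself stood at 144 and 126 CPM and then at 117 and 91.5 CPM, which did not pass the test (−0.37, adjusted p = 0.278). In RPKM, *Cox6b2* reached 183 ± 14.1 in induced cells, beside 205 ± 41.9 for *Cox6b1*. With *Cbfa2t3* KD the share of *Cox6b2* went from 1.63% and 1.49% to 3.66% and 2.59% with sh2 and to 6.18% and 4.72% with sh3. With *Irf2bp2* KD it went from 1.87% and 2.38% to 1.96% and 2.19%, with overlap of the groups, and with *Kdm1a* KD from 2% to 2.21% and 1.8%.

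The muscle forms fell from low levels. *Cox7a1* had 50 and 39 reads by count, or 2.49 and 3.28 CPM, in the non-induced libraries and 0.553 and 0.425 CPM in the induced ones (log2 fold change −2.53, SE 0.70, adjusted p = 0.0169). *Cox6a2* had 39 and 12 reads in the non-induced and 1 and 0 reads in the induced libraries, which is past the test (adjusted p = 0.00692). Its summed counts, 51 against 1, give a ratio of 45.8 after scaling, with an exact 95% interval of 7.86 to 1845 that covers counting error only. The call of *Cox7a1* was lost without either non-induced library or without MEL induced replicate 2 (adjusted p from 0.0572 to 0.174), and that of *Cox6a2* without MEL non-induced replicate 2 (adjusted p = 0.0569), while without MEL non-induced replicate 1 the filter on low counts left it out. Both genes are near the detection floor in induced cells, and exons of *Cox6a2* overlap those of *Itgad* on the other strand. *Cox7a2l*, a protein that helps complexes III and IV join, made up 68.8% and 71% of the *Cox7a1*, *Cox7a2* and *Cox7a2l* sum in non-induced cells and 79.3% and 80.3% in induced cells, with a log2 fold change of its own of 0.48 (adjusted p = 0.141). The general forms *Cox6a1* (−0.22) and *Cox7a2* (−0.23) did not pass the test. Of the subunit c genes, whose reads could in part be shared because their coding ends are nearly alike, *Atp5g1* made up 17.4% and 12.6% of their sum before and 11.3% and 7.62% after induction. *Atp5g2* and *Atp5g3* did not pass the test either (0.06 and −0.26).

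**Figure D4:**
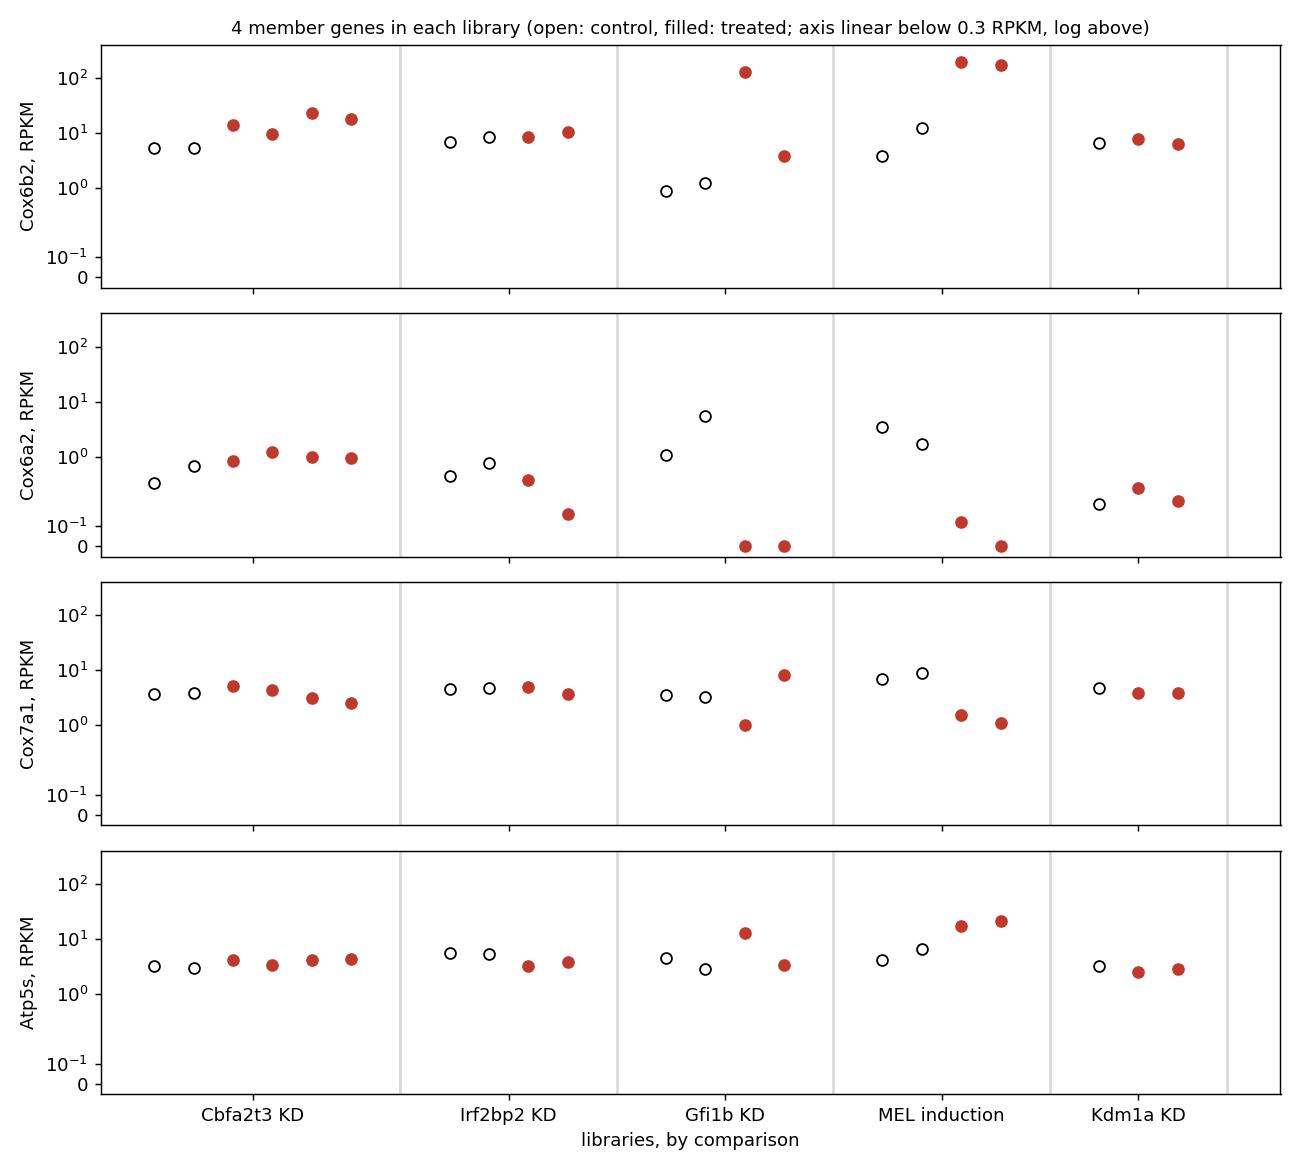
RPKM of *Cox6b2*, *Cox6a2*, *Cox7a1* and *Atp5s* in every library (open points: control, filled points: treated) on an axis that is linear below 0.3 and log above. *Cox6b2* exceeds 100 RPKM in both induced MEL libraries and in the library labelled Gfi1b KD replicate 1, and *Cox6a2* is listed at 0 in both Gfi1b KD libraries and in MEL induced replicate 2.

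The *Gfi1b* KD libraries did not behave as replicates of each other. Of 78 members tested, edgeR called 0 higher and 0 lower, as it did for 0% of all 11190 tested genes. At an unadjusted p under 0.05 there was 1 member higher, *Cox6b2*, and 0 lower, where 5.34% and 1.67% of all tested genes were, and DESeq2 called 0 members. The median absolute log2 difference between the replicates over the 79 members was 0.401 for the KD libraries and 0.121 for the controls. Against the mean of the controls, the median member stood at −0.27 in the library labelled Gfi1b KD replicate 1, with 67 of 79 members below, and at 0.12 in the library labelled Gfi1b KD replicate 2, with 60 of 79 above. Without the second KD library the fit called 3 members higher and 9 lower, where 14.6% and 12% of all genes were, and without the first 1 higher and 0 lower, where 2.25% and 1.23% were. These fits leave a single KD library, assumed to vary like the controls.

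*Cox6b2* stands out in this table as well. It was counted 7 and 6 times in the controls (0.868 and 1.20 RPKM), 1193 times in the library labelled Gfi1b KD replicate 1 (129 RPKM) and 25 times in the library labelled Gfi1b KD replicate 2 (3.81 RPKM). The share of *Cox6b2* in the pair was 0.247% and 0.32% in the controls, 29.2% in the library labelled Gfi1b KD replicate 1 and 0.926% in the library labelled Gfi1b KD replicate 2. *Atp5s* was counted at 6.72 and 4.23 CPM in the controls, at 19.3 CPM in the library labelled Gfi1b KD replicate 1 and at 4.93 CPM in the library labelled Gfi1b KD replicate 2. *Cox6a2* had 9 and 32 reads in the controls and 0 in both KD libraries. Against the mean floor of 3 counts per KD library, this is at least 2.98-fold lower than the first control and at least 15.6-fold lower than the second, so that the bound depends on the control. The gene was not tested because of the filter on low counts. The erythroid marker sum was 1312 and 1428 CPM in the controls, 5805 CPM in the library labelled Gfi1b KD replicate 1 and 1413 CPM in the other, and that of the other lineages 221 and 285 CPM, 884 CPM and 175 CPM. Their part in these values was not tested.

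*Kdm1a* KD, with a single control library and therefore no test, left the system near its control. Called here means a log2 difference of at least 0.5 in each KD library, in the same direction. By that rule 0 of 78 members were higher and 3 lower, where 13.1% and 9.8% of all 12628 genes were. *Ndufs3*, a core complex I subunit, went from 56.8 CPM to 34.3 and 33.5 CPM with KD. *Ndufs6*, an accessory subunit, went from 54.7 CPM to 36.3 and 36.7 CPM, and *Uqcrb*, a ubiquinone-binding subunit of complex III, from 68.5 CPM to 40.4 and 44.1 CPM. *Ndufs3* overlaps *Kbtbd4* and *Uqcrb* overlaps *Gm10767* on the other strand. The median member differed by −0.06, and the sums per complex by between −6.4% (complex III) and 4.3% (complex V). The erythroid marker sum was 2808 CPM in the control and 1602 CPM in both KD libraries, with the other lineages at 337, 285 and 348 CPM. Of 9 erythroid markers kept after the filter on low counts, 8 were lower in both KD libraries and 1 was higher in both. *Hbb-b2* went from 1237 CPM to 512 and 511 CPM, and *Alas2* from 66.2 CPM to 68.6 and 70.6 CPM.

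The erythroid marker sums were higher both after *Irf2bp2* KD and after induction, while many OXPHOS genes differed between these comparisons. A joint fit of the 4 replicated tables tested the difference of effects, in which each effect had its own controls. The *Irf2bp2* KD effect was above the induction effect in 32 members and below in 2, where 13.1% and 7.45% of all 13620 genes were, with a median difference of 0.65 on the log2 scale against 0.08 for all genes and 75 of 79 differences above 0. *Ndufs8* differed by 1.54 (SE 0.27, adjusted p = 0.00199), *Uqcr10* by 1.32 and *Cox4i1* by 1.07 (SE 0.22, adjusted p = 0.00552). *Cox6b2* differed by −4.10 (SE 1.20, adjusted p = 0.0263) and *Atp5s* by −2.35 (SE 0.57, adjusted p = 0.0109), the 2 members with a lower KD effect. *Uqcrh* differed by only 0.03 (SE 0.21), being higher in KD and induced libraries alike. By sign, 47 members were above 0 after *Irf2bp2* KD and below 0 after induction, 15 above in both, 16 below in both and 1 the other way. The tables differ in depth and in experiment, which cannot be told apart from the difference between KD and induction.

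The *Cbfa2t3* KD effect was above the induction effect in 22 members and below in 1, *Uqcrh* (−0.70, adjusted p = 0.0190), where 15.3% and 9.1% of all genes were. For *Cox6b2* the *Cbfa2t3* KD effect was 2.75 lower (a difference of −2.75, SE 1.11), which did not pass (adjusted p = 0.0792). A fit without the *Gfi1b* libraries, chosen after seeing the data, changed that call. In it *Cox6b2* (−2.79, SE 0.60, adjusted p = 0.00264) and *Atp5s* (−1.44, adjusted p = 0.00162) were below along with *Uqcrh*, and the counts for the *Cbfa2t3* effect against the induction effect were 31 above and 3 below, where 20.5% and 15.3% of all genes were. For the *Irf2bp2* effect against the induction effect they were 44 above and 2 below, with 19% and 14.8% of all genes. Between the *Cbfa2t3* and *Irf2bp2* effects the joint fit found 0 members that differed in either direction, where 0.595% and 0.147% of all genes did, and 5 at an unadjusted p under 0.05 with the limit on size kept, where 9.38% of all genes did. Without the *Gfi1b* libraries 2 members differed. The *Cbfa2t3* effect was above the *Irf2bp2* effect for *Uqcrc2* (0.70) and below it for *Uqcrh* (−0.72), where 2.25% and 1.39% of all genes were.

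**Figure D5:**
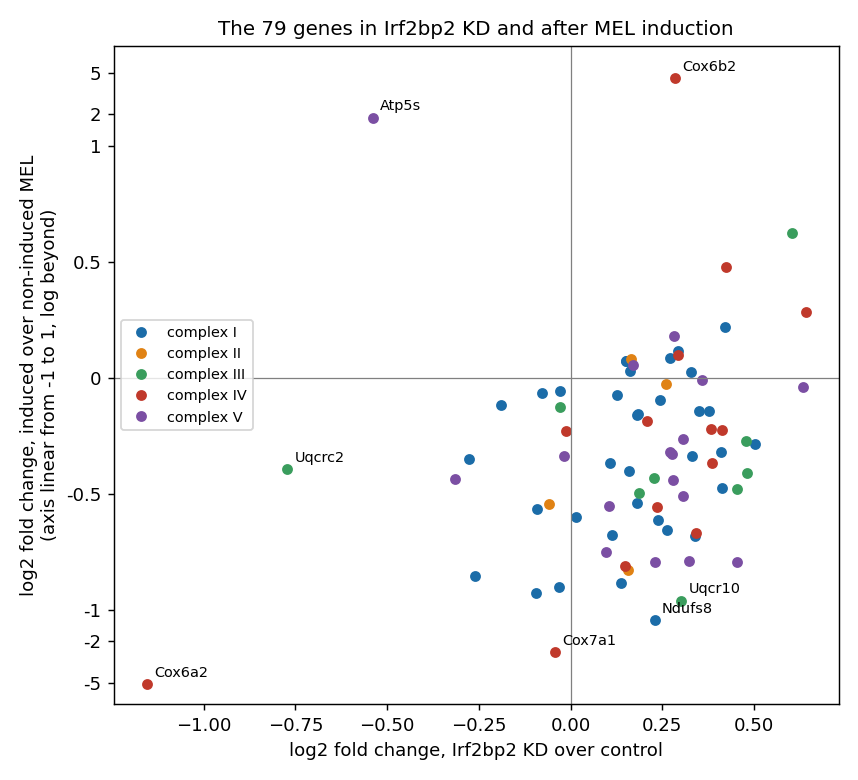
Log2 fold change after MEL induction (vertical axis, linear from −1 to 1 and log beyond) against that after *Irf2bp2* KD (horizontal axis) for the 79 members, coloured by complex. The lower right quadrant, above 0 after KD and below 0 after induction, holds 47 members, and *Cox6b2*, *Atp5s*, *Uqcrc2* and *Cox6a2* lie apart.

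Other mitochondrial gene lists were set beside the OXPHOS genes. The shares of all tested genes to read their counts against are 23.6% higher and 23.6% lower at the adjusted p alone after *Irf2bp2* KD, 12.4% higher and 14.8% lower after induction, and 2.99% higher after *Cbfa2t3* KD. After *Irf2bp2* KD the median log2 fold change was 0.03 for 77 mitochondrial ribosomal protein genes, of which 19 were higher and 11 lower at the adjusted p alone, and 0.01 for 40 assembly factors of the respiratory complexes (7 higher, 9 lower) and for 13 citric acid cycle genes (2 higher, 2 lower). The 87 cytosolic ribosomal protein genes, also short housekeeping genes, stood at 0.14, with 22 higher and 2 lower. After induction the citric acid cycle genes had a median of −0.61, with 6 of 13 called lower. The list of mobile carriers, an inhibitor and exchangers had −0.62, with 4 of 10 lower and 1 higher, and the mitochondrial ribosome −0.40, with 18 of 77 lower. Assembly factors stood at −0.13 (3 of 40 lower, 1 higher), regulators of mitochondrial biogenesis at −0.01 (1 of 13 lower) and cytosolic ribosomal proteins at 0.07 (3 of 86 higher, 2 lower). After *Cbfa2t3* KD the median was 0.09 for the mitochondrial ribosome, with 0 of 77 past both limits. It was 0.04 for the list of carriers, an inhibitor and exchangers, with 1 of 10 higher.

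ChIP-Seq sites of ETO2 and IRF2BP2 were set against the members' transcription starts on mm9, for the 78 members that could be placed. A site centre lay within 1 kb of the start of 13 members (16.7%), against 20.9% of 10912 genes tested in the *Cbfa2t3* table and 11.5% of protein-coding genes. All 13 were sites of IRF2BP2 without ETO2 (the classes are numbered in the authors' table and were named here from their sizes), a class that lay within 1 kb of 19.5% of the tested genes. They belong to *Ndufa1*, *Ndufa7*, *Ndufc2*, *Ndufs1*, *Ndufs7*, *Cox5a*, *Cox6c*, *Cox7a2*, *Atp5a1*, *Atp5b*, *Atp5g2*, *Atp5g3* and *Atp5l*. The site at *Atp5l*, centred 231 bp before its start, was 11.5-fold over the IgG control and that at *Atp5b*, in its exon, 3.64-fold. None of the 78 members had an ETO2-only or a shared site within 1 kb, where 0.495% and 1.23% of tested genes did. A site within 5 kb was found for 19 members (24.4%, against 31.4% of tested genes). IRF2BP2 had 1 ChIP and 1 IgG library, and the ETO2 reads came from an earlier published data set that is not among the samples analysed here, so the sites have no replicate check here.

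*Cox6b2* had 2 ETO2-only sites in its neighbourhood. The gene lies at chr7:4703396-4704696 on the minus strand of mm9 and has 4 annotated exons. The site centres lie 5446 and 9579 bp downstream of its start, at 5.57-fold and 6.75-fold over IgG. The nearer lies between *Cox6b2* and *Suv420h2*, a histone methyltransferase gene, and the farther inside *Suv420h2*. The central stretch of each is shown because ETO2 is known to reach DNA through GATA1 and TAL1, and capitals mark the GATA motif, AGATAA, and the E-box, which is CAGNTG, on either strand.
ETO2-only site between *Suv420h2* and *Cox6b2*, chr7:4699190-4699310 (plus strand): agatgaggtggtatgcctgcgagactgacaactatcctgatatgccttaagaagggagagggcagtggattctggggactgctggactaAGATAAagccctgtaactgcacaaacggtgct
ETO2-only site inside *Suv420h2*, chr7:4695057-4695177 (plus strand): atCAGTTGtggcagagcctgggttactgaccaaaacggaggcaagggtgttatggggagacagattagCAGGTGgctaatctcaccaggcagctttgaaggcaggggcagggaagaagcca

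The nearer stretch holds a GATA match and the farther a pair of E-box matches. Within 100 bases of the centre, AGATAA or its reverse occurred in 56.1% of ETO2-only sites, in 58.4% of sites shared with IRF2BP2 and in 22.6% of IRF2BP2-only sites, and an E-box in 50.4%, 60% and 55.1%. *Suv420h2* rose with *Cbfa2t3* KD (log2 fold change 1.05, adjusted p = 3.42e-04), with *Irf2bp2* KD (1.31, adjusted p = 1.13e-08) and with induction (2.13, adjusted p = 9.28e-05). It was at 58.5 CPM in the Lsd1 control and at 44.9 and 41.9 CPM with *Kdm1a* KD, and had 401 and 333 reads in the *Gfi1b* controls, 3096 in the library labelled Gfi1b KD replicate 1 and 360 in the other. Nearness assigns no site to either gene. *Cox7a1*, *Atp5s* and *Uqcrc2* had no site centred within 20000 bp of their start.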

How the data were processed

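Libraries of MEL cells were sequenced by RNA-Seq in 5 tables, each with its own controls. The authors aligned reads with TopHat2 to mm9, counted reads per RefSeq gene and deposited raw counts and RPKM values. The libraries followed a standard TruSeq protocol, and use of strand in counting is not given in the sources used here. In the deposited ChIP-Seq table the fold ratio is ChIP over IgG and the adjusted p-value is the authors' own. Its numeric site classes carry no legend and were named here from the number of sites in each.

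Counts were analysed per table in R 4.3.3 with edgeR 4.0.16 (TMM scaling, filterByExpr, quasi-likelihood test, Benjamini-Hochberg adjustment over all genes of the table), with limits of 0.05 on the adjusted p and 0.5 on the log2 fold change. DESeq2 1.42.0 was an alternative. The *Kdm1a* table has 1 control, so no test was made, and log2 CPM with a prior count of 2 was compared. Replicated tables were fitted jointly for differences of effects. RPKM served only for levels between genes. Levels under 3 counts per library were taken as the floor, and intervals cover counting error only. Libraries of a group differed beyond sampling noise, so none was counted as a duplicate. The study gives at least 2 independent replicates, but the labels do not tie libraries to cultures, so p-values measure the spread between these libraries. The script was tested on simulated data.

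Members were named by fixed rules: the largest changes past both limits, the highest level and the largest induction change per complex, and subunits with paralogs. *Uqcr11*, *Ndufv1*, *Atp5a1*, *Atp5f1*, *Ndufa10*, *Cox7b*, *Atp5j*, *Ndufs3*, *Ndufs6*, *Uqcrb*, *Suv420h2* and the members with a binding site were named after their values were seen. The members and all gene lists were chosen with earlier results of these data known. Gene positions on mm9 came from GENCODE, which placed 78 members, and promoters from RefSeq (GRCm38.p6). Alternatives were other scalings and filters, DESeq2, other limits, a replicate block and leaving out each library.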

Additional observations from a re-analysis of the deposited data

Results flagged for a closer look

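*Ndufb3* stood at 53.4 CPM in Eto2 KD-sh2 replicate 2, apart from the other 3 *Cbfa2t3* KD libraries, which lay close together. The gap was 0.86 of the range of the 4 libraries, and about 1 in 20 groups shows such a gap by chance.

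Differences of effects in the joint fit of 4 tables past both limits, for members named by rule, are given on the log2 scale. The *Cbfa2t3* KD effect minus the induction effect was 6.31 for *Cox6a2* and 2.60 for *Cox7a1*, both at few counts in induced cells. It was 1.25 for *Ndufs8*, 1.08 for *Ndufb3*, 1.02 for *Ndufb6*, 0.96 for *Ndufa9*, 0.958 for *Ndufa12* and 0.602 for *Ndufb8* of complex I, 0.972 for *Sdhb* of complex II, 1.01 for *Uqcr10* of complex III and 0.657 for *Cox4i1* of complex IV. It was −0.697 for *Uqcrh*.

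The *Irf2bp2* KD effect minus the induction effect was −4.10 for *Cox6b2* and −2.35 for *Atp5s*. In complex I it was 1.54 for *Ndufs8*, 1.07 for *Ndufb6*, 0.98 for *Ndufb8*, 0.924 for *Ndufa9* and 0.884 for *Ndufb3*. In complexes II and III it was 1.04 for *Sdhb* and 1.32 for *Uqcr10*, in complex IV 1.07 for *Cox4i1*, 0.815 for *Cox6b1* and 0.66 for *Cox6a1*, and in complex V 0.907 for *Atp5b*, 0.726 for *Atp5e* and 0.628 for *Atp5g3*. The tables differ in experiment and depth, which cannot be told apart from these differences.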

How the results depend on the processing

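No called result changed direction under any alternative run, while the *Gfi1b* median of the members, near 0, ranged from −0.28 to 0.12 with single libraries left out. Of the other alternatives, leaving out single libraries apart, 95 counts that answer a comparison stayed within 1.5 times of the main count. A further 238 values were also rated the same. Single members kept their call, and medians of the members lay within the SD of the medians of the treated libraries. In the *Gfi1b* table those library medians were −0.27 and 0.12, so that this allowance was wide and says little there. At an unadjusted p with the fold limit kept the calls were 2 members higher after *Cbfa2t3* KD (4.16% of all tested genes), 1 higher after *Gfi1b* KD (5.33%), 26 lower after induction (21%), and 5 members (9.38%) between the *Cbfa2t3* and *Irf2bp2* effects. With no limit on the fold change, *Irf2bp2* KD gave 40 higher and 5 lower (23.6% each), and with a log2 limit of 1 it gave 0 higher and 0 lower (2.77% and 4.27%), induction 3 lower (10.8%) and *Kdm1a* KD 0 lower (2.11%). Without a filter on low counts *Gfi1b* KD gave 1 higher and 1 lower (2.27% and 0.135%), and with library size alone *Kdm1a* KD gave 1 higher (13.5%) and *Ndufb7* after *Irf2bp2* KD fell under the fold limit at 0.47. Without the *Gfi1b* libraries, a fit added after seeing the data, 2 members differed between the *Cbfa2t3* and *Irf2bp2* effects, 34 instead of 23 between the *Cbfa2t3* and induction effects (with *Cox6b2* and *Atp5s* now past the test) and 46 instead of 34 between the *Irf2bp2* and induction effects. Limited to sites at or above the median fold of their class, 5 members (6.41%) had a site within 1 kb, against 9.52% of tested genes. The cause of these shifts was not tested, beyond the change of limit itself.

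With each library left out in turn, members higher ranged from 0 to 1 after *Cbfa2t3* KD, from 4 to 13 after *Irf2bp2* KD, from 0 to 3 after *Gfi1b* KD and from 1 to 1 after *Kdm1a* KD, and members lower from 1 to 2 after *Irf2bp2* KD, from 0 to 9 after *Gfi1b* KD, from 1 to 12 after induction and from 3 to 4 after *Kdm1a* KD. The most *Irf2bp2* calls, 13 higher, came without Irf2bp2 WT replicate 2 (11.5% of all genes), and 8 came without Irf2bp2 KD-sh1 replicate 1 (9.31%). In these fits the share of all genes higher ranged from 1.05% to 3.26% for *Cbfa2t3* KD, from 8.95% to 11.5% for *Irf2bp2* KD and from 0% to 14.6% for *Gfi1b* KD, and the share lower from 10.9% to 12.5% for *Irf2bp2* KD, from 0% to 12% for *Gfi1b* KD and from 6.52% to 16.1% for induction. At the adjusted p alone the *Irf2bp2* counts ranged from 22 to 42 higher and from 1 to 5 lower. The 1 lower came without Irf2bp2 KD-sh1 replicate 1. The shares of all genes ranged from 15.9% to 22.7% higher and from 15.5% to 22.4% lower. These *Irf2bp2* fits leave 1 library in a group. Without 1 *Kdm1a* KD library the rule is looser, since only the remaining one must pass the limit. The shares of all genes were then 16.2% higher and 12.3% lower without Lsd1 KD replicate 2, and 15.4% and 12.7% without replicate 1. The *Kdm1a* counts are thus not comparable with the main 0 higher.

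Libraries share replicate numbers across groups, but nothing says that a number marks a shared culture, and the correlation of same-numbered deviations was 0.04 for *Irf2bp2*, 0.01 for *Gfi1b*, 0.21 for MEL and 0.18 to 0.35 in the *Cbfa2t3* table. With a replicate block the members called higher and lower were 1 and 0 for *Cbfa2t3* KD (2.67% and 2.37% of all genes), 4 and 2 for *Irf2bp2* KD (10.2% and 12.7%), 0 and 0 for *Gfi1b* KD (0% and 0%) and 3 and 18 for induction (15.2% and 18.2%). In the *Gfi1b* table the median of all genes shifted from 0.02 to 0.16 both with DESeq2 and in edgeR without a filter on low counts, and stood at 0.01 with DESeq2's size factors in edgeR. Groups of 2 libraries and few reads for *Cox6a2* and *Cox7a1* limit the precision.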
